A study of Mus musculus with 12 samples.

Results

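The genes described here are 32 members of the pathways that make, move and export sterols and fatty acids. They were chosen by gene symbol from a fixed list, and each matched 1 row in every deposited table of 41457 genes. By role they are 6 enzymes of the mevalonate and isoprenoid steps, 11 of the squalene and sterol steps, 4 genes of control and sterol transport, 2 efflux transporters, 5 enzymes of acetyl-CoA supply and fatty acid synthesis, and 4 fatty acid desaturases. All 32 passed the filter on low counts in every comparison.

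RNA was sequenced from CD4+ T cells of C57BL/6 mice, taken from lymph nodes and spleen and cultured toward Th1, Th2 or Th17 cells, the T helper lineages. Cells carried NFATc1/ΔS, a form of the T cell transcription factor NFATc1 that cannot be joined to the small protein SUMO, or were wild type (WT), and RNA was taken on day 3.5 or day 2.5. Each cell type, genotype and day had 1 library, 12 in all, so 4 libraries stood for each cell type, 6 pairs for the genotypes and 6 pairs for the days. The labels do not state whether each library had its own animal or culture. Hence p-values measure only the spread between these libraries that the fitted factors leave, which may be technical. That spread also holds any effect of 1 factor that differs between groups of the others and was not fitted. With 1 library for each combination these cannot be told apart.

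All cultures received plate-bound anti-hamster IgG with anti-CD3 and anti-CD28, and medium with 5% serum. Th1 cultures had 10 ng/ml IL-12 and an antibody against IL-4. Th2 cultures had 50 ng/ml IL-4 and an antibody against interferon gamma. Th17 cultures had 0.5 ng/ml TGFβ, 20 ng/ml IL-6 and both antibodies. The Th17 cultures also differed in medium (IMDM, against RPMI) and in anti-CD3 (0.25 against 0.5 µg/ml), so for Th17 the lineage and the culture conditions cannot be told apart.

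Cholesterol is built from acetyl-CoA through mevalonate, isoprenoids, squalene and lanosterol, and fatty acids are built from the same acetyl-CoA. The SREBP transcription factors, encoded by Srebf1 and Srebf2, switch on the genes of both routes when membranes hold little sterol, and Insig1 holds them back when sterol is plentiful. When sterols accumulate, the nuclear receptor LXR induces the exporters Abca1 and Abcg1. Activated T cells need membrane lipid for growth, and these routes are known to be induced when T cells are stimulated.

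SREBP proteins bind a short promoter motif, the sterol regulatory element, usually beside boxes for NF-Y and Sp1. Promoters in RefSeq (GRCm38.p6), read as the 250 bases before a gene start, were available for 24 members in 28 windows and were searched on both strands; Sqle, Fdps, Fdft1, Scd1, Scd2, Fads1, Abcg1 and Stard4 were not used here. The sterol element, written as TCACNCCAC, was in 3.57% of the members' windows and in 1.05% of all 32851 windows of the same length. The NF-Y box CCAAT was in 67.9% and 33.8%, the Sp1 box GGGCGG in 82.1% and 32.7%, and the E-box CACGTG in 17.9% and 6.02%. In no window of a member did matches to different motifs share bases. A match is a description of the letters and not a shown binding site, and a window without one says nothing about the factor.

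The single member with a match to the sterol element was Hmgcs1, HMG-CoA synthase, which makes the precursor of mevalonate and was the synthesis gene that differed in all 3 comparisons of cell types. Its window lay at chr13:119690101-119690350 on the plus strand, with the match, in capitals, starting 137 bases before the RefSeq start. It also held 3 NF-Y boxes and 2 Sp1 boxes.
Hmgcs1: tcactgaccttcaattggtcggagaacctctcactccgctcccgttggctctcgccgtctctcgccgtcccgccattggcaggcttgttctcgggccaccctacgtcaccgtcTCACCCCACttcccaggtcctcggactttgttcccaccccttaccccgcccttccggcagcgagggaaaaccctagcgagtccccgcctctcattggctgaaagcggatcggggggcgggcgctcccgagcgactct

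Levels between genes can be compared only per length, as length-scaled transcript shares (TPM). By that measure the most abundant member was the desaturase Scd2, with 1040 TPM in Th1, 1000.0 TPM in Th2 and 1080 TPM in Th17 libraries (means of 4). Hmgcs1 averaged 467, 193 and 333 TPM in the same order, and Acly, which releases acetyl-CoA from citrate, 361, 315 and 441 TPM. The SREBP gene Srebf2 averaged 260, 240 and 280 TPM, above Srebf1 at 93.0, 103 and 104 TPM. The exporter Abca1 was the lowest member in each cell type, at 0.275, 1.90 and 1.59 TPM. Acss2 averaged 10.2, 10.7 and 12.4 TPM, and the exporter Abcg1 9.99, 20.8 and 19.8 TPM. In Th1 libraries Hmgcs1 ranged from 438 to 493 TPM and did not overlap Acly, at 344 to 385 TPM, whereas Acly and Fdps, at 275 to 376 TPM, overlapped.

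Each library held 13417121 to 17774400 reads on genes, of which 78.95 to 81.37% mapped uniquely. Of the 32 members, 25 had at least 90% unique reads. Fdps had 14.0%, Tm7sf2 25.3% and Mvd 30.3%, so counts of these 3 share most reads with other loci and are the least certain. Lss, at 51.2%, Acat2, at 56.3%, Hmgcs1, at 73.4%, and Acss2, at 75.5%, also share reads with other loci. Markers are given in CPM, counts per 1000000 scaled reads. Summed over the list fixed for each lineage, they were highest in their own cultures. The Th1 list ran from 419 to 545 CPM in Th1, 42.1 to 91.6 in Th2 and 93.1 to 186 in Th17 libraries. Its largest part in Th1 libraries was Il12rb2, at 253.1 to 439.6 CPM. Cxcr3, of the same list, had 1.697 to 12.02 CPM in Th1. That range overlapped Th2, at 2.959 to 4.351 CPM, and Th17, at 2.241 to 4.18 CPM. The Th2 list ran from 81.6 to 121, 716 to 1210 and 74.9 to 80.6 CPM, and the Th17 list from 3.33 to 14.4, 5.77 to 10.5 and 82.9 to 175 CPM, in Th1, Th2 and Th17 libraries. Both Th1 libraries of day 2.5 stood apart from the rest. Across 12797 genes, the Th1 NFATc1/ΔS day 2.5 library correlated at 0.942 to 0.963 with the other Th1 libraries, and the Th1 WT day 2.5 library at 0.963 to 0.971, below its 0.973 to 0.986 with the Th17 libraries. The other libraries correlated at 0.98 to 0.996 within their cell type. Among the members, 5 lay more than 0.5 log2 from every other Th1 library in Th1 NFATc1/ΔS day 2.5: Idi1, Acaca and Fasn above, Abcg1 and Acss2 below. No other library had such a member within its cell type.

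**Figure D1:**
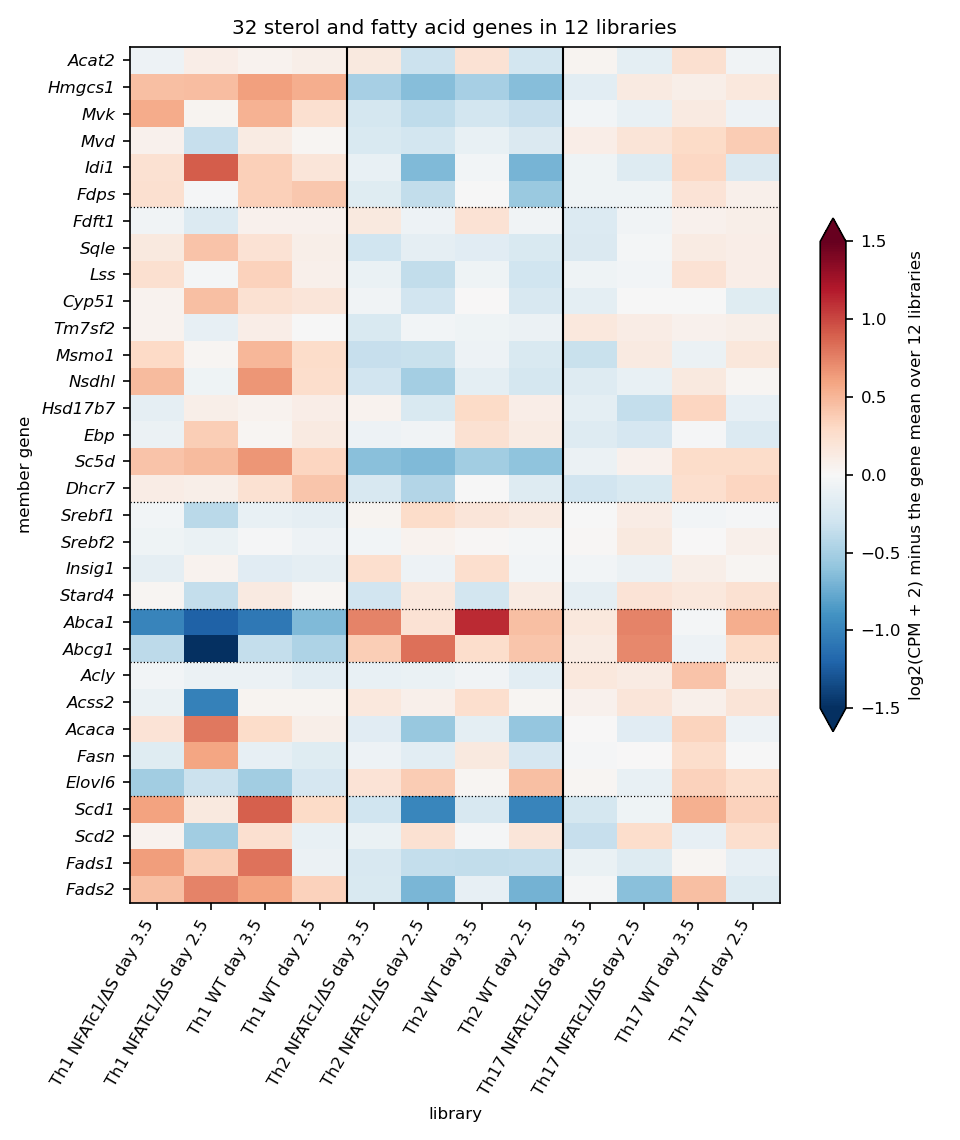
Levels of the 32 members (rows, grouped by role between dotted lines) in the 12 libraries (columns), as log2(CPM + 2) minus the gene's mean over all libraries; red is above the mean and blue below. Hmgcs1, Sc5d and Scd1 are red in Th1 and blue in Th2 libraries, Abca1 and Abcg1 are blue in Th1 libraries, and the Th1 NFATc1/ΔS day 2.5 column departs from the other Th1 columns at Idi1, Acaca, Fasn, Abcg1 and Acss2.

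Th1 cells held more RNA of sterol synthesis enzymes than Th2 cells, and less of the sterol exporters. Of the 32 members, 15 rose and 3 fell in Th1 relative to Th2 (quasi-likelihood test of edgeR, Benjamini-Hochberg adjustment over all genes, adjusted p under 0.05, 4 libraries each). Over all 12797 genes tested, 14.6% were higher and 14% lower. The median log2 fold change was 0.44 over the 17 sterol synthesis members and 0.13 over the 9 members of fatty acid synthesis and desaturation, against 0.07 over all genes. All 3 comparisons of cell types share libraries, so they are not independent. The higher members comprised 11 of the 17 enzymes of sterol synthesis, 3 of the 4 desaturases and Acaca. None of these 17 members was lower. In bulk RNA, fewer cells of a type and less RNA per cell cannot be told apart.

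In the mevalonate steps, 4 of 6 members were higher. Wherever 4 values are given for a cell type, they stand in the order NFATc1/ΔS day 3.5, NFATc1/ΔS day 2.5, WT day 3.5 and WT day 2.5. Hmgcs1 (ENSMUSG00000093930, chromosome 13, 119690379 to 119708260) had 671.9, 675.1, 749.6 and 713.7 CPM in Th1 libraries, against 345.4, 313.6, 346.1 and 312.7 CPM in Th2 libraries. All 4 Th1 values lay above all 4 Th2 values, and the log2 fold change was 1.09 ± 0.10 (SE, edgeR adjusted p = 0.000156). Mvk, mevalonate kinase, was higher by 0.71 ± 0.11 (edgeR adjusted p = 0.00192) and Idi1, the isomerase that sets the balance of isoprene units, by 0.82 ± 0.20 (edgeR adjusted p = 0.0165). Fdps, which makes farnesyl diphosphate, was higher by 0.53 ± 0.12 (edgeR adjusted p = 0.0112), also in a fit to unique reads. Mvd, the decarboxylase of this route, and Acat2, the thiolase at its entry, did not pass, at 0.19 ± 0.10 and 0.10 ± 0.13. Without Th1 NFATc1/ΔS day 2.5 Mvd was called higher, at 0.27 ± 0.08 (edgeR adjusted p = 0.0312).

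Among the squalene and sterol steps, Sc5d, a desaturase late in the route (ENSMUSG00000032018, chromosome 9, 42251595 to 42264256), had 64.32, 66.59, 76.42 and 59.97 CPM in Th1 libraries, against 30.04, 29.22, 32.49 and 30.52 CPM in Th2 libraries. The lowest Th1 library was well above the highest Th2 library, and the log2 fold change was 1.13 ± 0.10 (edgeR adjusted p = 0.000154). Nsdhl, which removes a carbon from methylsterols, was higher by 0.67 ± 0.11 (edgeR adjusted p = 0.00345). The methylsterol oxidase Msmo1, the squalene epoxidase Sqle, the final reductase Dhcr7, the lanosterol synthase Lss and the lanosterol demethylase Cyp51 were higher by 0.37 to 0.53. The 4 other enzymes of these steps, the squalene synthase Fdft1, the sterol reductase Tm7sf2, the ketosteroid reductase Hsd17b7 and the isomerase Ebp, did not pass, at -0.10 to 0.12; that of Ebp turned from positive to -0.06 without Th1 NFATc1/ΔS day 2.5.

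Of the 4 fatty acid desaturases, 3 were higher in Th1 than in Th2. Scd1, which puts a double bond into saturated fatty acids (ENSMUSG00000037071, chromosome 19, 44394451 to 44407709), had 210.4, 152.1, 257.5 and 168.6 CPM in Th1 libraries, against 111.5, 68.87, 115.9 and 68.28 CPM in Th2 libraries. The groups did not overlap, and the log2 fold change was 1.12 ± 0.18 (edgeR adjusted p = 0.00276). Fads2 and Fads1, which act on polyunsaturated fatty acids, were higher by 1.03 ± 0.18 (edgeR adjusted p = 0.00443) and 0.80 ± 0.15 (edgeR adjusted p = 0.00502). Scd2, the most abundant member, did not pass (-0.13 ± 0.19), and its value turned to 0.07 ± 0.14 without Th1 NFATc1/ΔS day 2.5.

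Of the 5 genes of acetyl-CoA supply and fatty acid synthesis, 1 was higher and 1 lower. Acaca, which makes malonyl-CoA, was higher in Th1 by 0.74 ± 0.18 (edgeR adjusted p = 0.0151). Elovl6, which lengthens saturated fatty acids (ENSMUSG00000041220, chromosome 3, 129532355 to 129638495), had 55.59, 64.24, 55.73 and 67.55 CPM in Th1 libraries, against 93.38, 105.4, 82.1 and 111.2 CPM in Th2 libraries. Each Th1 value was below each Th2 value, and Elovl6 was lower by -0.69 ± 0.13 (edgeR adjusted p = 0.00533). Fasn, the fatty acid synthase, Acly and Acss2, which makes acetyl-CoA from acetate, did not pass, at 0.13 ± 0.17, 0.01 ± 0.09 and -0.38 ± 0.20. The value of Fasn turned to -0.10 ± 0.08 without Th1 NFATc1/ΔS day 2.5.

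Both exporters were lower in Th1 than in Th2. Abca1 (ENSMUSG00000015243, chromosome 4, 53030787 to 53159895) had 1.008, 0.5881, 0.8484 and 1.779 CPM in Th1 libraries, against 7.996, 4.956, 10.95 and 6.179 CPM in Th2 libraries. All Th1 libraries were low, and the log2 fold change was -2.86 ± 0.42 (edgeR adjusted p = 0.00171). Abcg1 (ENSMUSG00000024030, chromosome 17, 31057698 to 31115777) had 16.85, 5.62, 17.29 and 15.95 CPM in Th1 libraries, against 29.83, 41.72, 27.58 and 30.9 CPM in Th2 libraries. The groups did not overlap, the lowest value was that of the Th1 NFATc1/ΔS day 2.5 library, and the log2 fold change was -1.21 ± 0.36 (edgeR adjusted p = 0.0355). Without that library it was -0.79 ± 0.11 (edgeR adjusted p = 0.00105).

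None of the 4 genes of control and sterol transport passed in the fit of all 12 libraries. Srebf1 had 196.9, 152.7, 187.8 and 183.9 CPM in Th1 libraries, against 208.6, 245.4, 230.9 and 223.4 CPM in Th2 libraries. Its Th1 values were all below its Th2 values, but at -0.33 ± 0.11 it missed the threshold (edgeR adjusted p = 0.0502). It was called lower by DESeq2, with the other scaling, on unique or exon reads, and without Th1 NFATc1/ΔS day 3.5 or Th17 NFATc1/ΔS day 2.5. Srebf2 had 616.6, 604.3, 638.3 and 614.7 CPM in Th1 libraries, against 628.4, 670.5, 656.9 and 633.6 CPM in Th2 libraries (log2 -0.06 ± 0.08). Insig1 had 159.8, 182.4, 156.1 and 159.7 CPM in Th1 libraries, against 210.3, 166.4, 210.4 and 170.7 CPM in Th2 libraries. Both genes overlapped between the groups and did not pass, as did Stard4, which carries cholesterol between membranes (0.03 ± 0.15). The Insig1 value of 182.4 CPM was that of Th1 NFATc1/ΔS day 2.5, and the other Th1 values lay below all Th2 values. Without that library Insig1 was called lower in Th1, at -0.29 ± 0.09 (edgeR adjusted p = 0.0412).

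**Figure D2:**
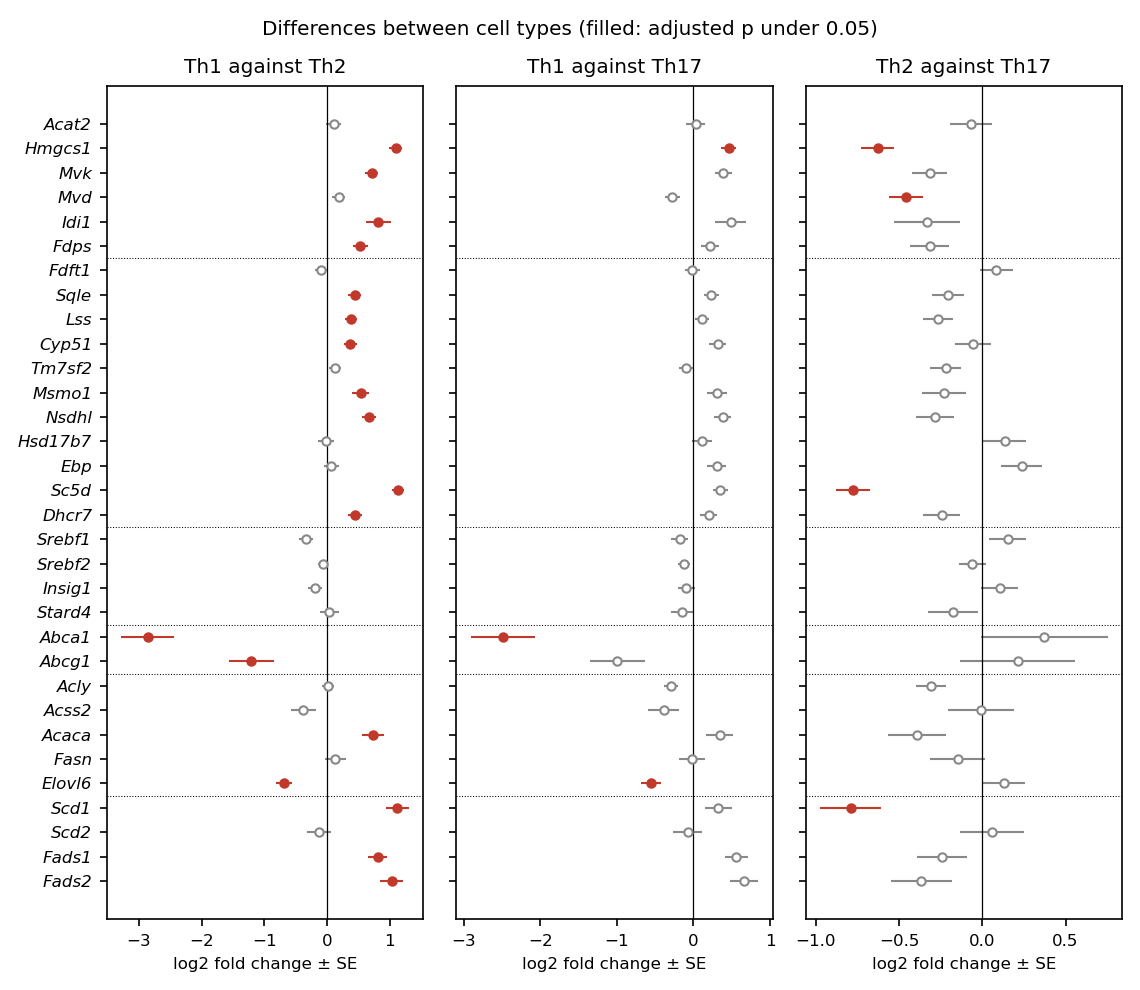
Log2 fold changes (points) with standard errors (bars) of the 32 members in the 3 comparisons of cell types, 4 libraries each, with filled red points for adjusted p under 0.05. In Th1 against Th2, 15 members are filled right of 0 and 3 left of it, with Abca1 lowest at -2.86; in Th2 against Th17 the 4 filled members lie left of 0.

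**Figure D3:**
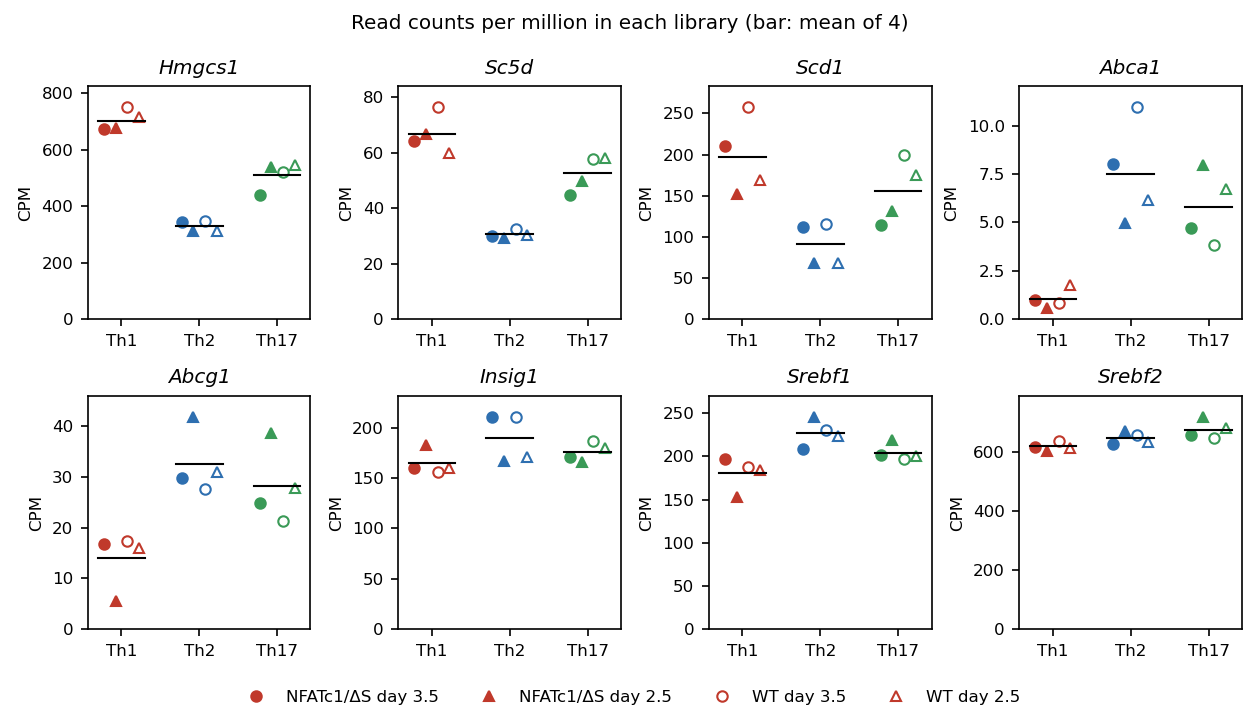
CPM of 8 members in each library, by cell type; filled symbols are NFATc1/ΔS, open symbols WT, circles day 3.5, triangles day 2.5, and black bars the mean of 4 libraries. For Hmgcs1 and Sc5d all Th1 points lie above all Th2 points, for Abca1 and Abcg1 all lie below, and Srebf2 spans a narrow range in all 3 cell types.

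Summed RNA of markers of other cell types and of dividing cells differed between these groups for some lists and overlapped for others. The 12 proliferation markers summed to 3790 to 5440 CPM in Th1, 2770 to 3740 CPM in Th2 and 2240 to 3790 CPM in Th17 libraries. All 12 had log2 fold changes above 0 in Th1 relative to Th2, 3 of them past the test. Their median was 0.58, against 0.44 over the 17 sterol synthesis members. Relative to Th17 all 12 were also above 0, 1 of them past the test. The median there was 0.56, against 0.23 over the same 17 members. The 8 B cell markers summed to 4.31 to 8.9 CPM in Th1, 36 to 50.1 CPM in Th2 and 14.5 to 31.6 CPM in Th17 libraries, and all 7 that were tested were lower in Th1 than in Th2. The 6 dendritic cell markers summed to 0.896 to 2.02, 5.25 to 8.77 and 1.81 to 3.18 CPM in the same cell types, with Clec9a at 0 in every library. The 6 myeloid markers summed to 3.66 to 15.6, 11.5 to 14.4 and 9.04 to 17.7 CPM, with Csf1r at 0 in 8 of 12 libraries. CD8 T and NK cell markers summed to 23.6 to 55.3, 73.4 to 210 and 30.1 to 55.5 CPM, and erythroid markers to 2.9 to 7.73, 1.61 to 21.3 and 1.6 to 23.4 CPM. Most of the CD8 T and NK cell sum in Th2 was Gzma, at 49.79 to 182.5 CPM, against 2.806 to 10.48 CPM in Th1. Cd8b1 had 18.01 to 22.51 CPM in Th2 and 9.541 to 21.48 CPM in Th1. Cd8a had 5.263 to 8.211 CPM in Th2 and 6.208 to 22.87 CPM in Th1. CD4 T cell markers summed to 2520 to 3230 CPM in all 12. The part of these cells in the results on sterol enzymes and exporters was not tested.

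Of the 18 calls between Th1 and Th2, 16 remained without the Th1 WT day 2.5 library, Cyp51 and Abcg1 being lost. Without the Th1 NFATc1/ΔS day 2.5 library all 18 remained among 20 calls, and without both Th1 day 2.5 libraries 22 members were called, 17 higher and 5 lower, of which 17 were among the 18. These larger counts stand without the shares of all genes called in the same fits, so they are not a result about the members. Leaving out Th2 WT day 2.5 or Th2 NFATc1/ΔS day 2.5 left 11 calls each; lost in both cases were Idi1, Acaca, Msmo1, Dhcr7, Lss, Cyp51 and Abcg1. Leaving out Th2 WT day 3.5 left 12 calls, without Dhcr7, Msmo1, Lss, Sqle, Cyp51 and Abcg1. Cyp51 and Abcg1 were also lost without Th17 WT day 2.5 or Th17 NFATc1/ΔS day 3.5, Msmo1 and Abcg1 without Th2 NFATc1/ΔS day 3.5, and Cyp51 without Th17 WT day 3.5 or Th17 NFATc1/ΔS day 2.5.

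Other genes of the pathways were called in both directions. Of 44 further genes of sterol synthesis, SREBP control, the LXR side, storage and uptake, fatty acid synthesis and oxidation, 43 were tested, and in Th1 relative to Th2 5 were higher and 7 lower, with a median log2 fold change of -0.09. Among them, the 6 further genes of sterol and isoprenoid synthesis had 0 higher and 1 lower, with a median of 0.23. Acsl4, which activates polyunsaturated fatty acids, was higher by 0.82 ± 0.14 (edgeR adjusted p = 0.00281), and Mbtps2, a protease that releases SREBP, by 0.66 ± 0.14 (edgeR adjusted p = 0.00867). Sec24d, of the coat that carries SREBP to the Golgi, was lower by -1.11 ± 0.20 (edgeR adjusted p = 0.00455). Lpcat3, which puts polyunsaturated fatty acids into phospholipids, was lower by -0.66 ± 0.12 (edgeR adjusted p = 0.00461).

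Against Th17 cells, Th1 cells were higher in Hmgcs1 and lower in Abca1 and Elovl6. These 3 of 32 members passed, 1 higher and 2 lower, where 1.95% of all genes were higher and 2.83% lower. Hmgcs1 had 439.2, 539.1, 519.5 and 544.8 CPM in Th17 libraries, below every Th1 value given above, with a log2 fold change of 0.46 ± 0.10 (edgeR adjusted p = 0.0329). Abca1 had 4.694, 7.987, 3.853 and 6.708 CPM in Th17 libraries, above every Th1 value, and was lower in Th1 by -2.49 ± 0.42 (edgeR adjusted p = 0.0162). Elovl6, at 82.27, 74.65, 103.2 and 97.3 CPM in Th17 libraries, was lower in Th1 by -0.56 ± 0.13 (edgeR adjusted p = 0.0446). Abcg1, with 24.86, 38.52, 21.36 and 27.82 CPM in Th17 libraries, did not overlap its Th1 values but did not pass (-0.99 ± 0.36, edgeR adjusted p = 0.136). Without Th1 NFATc1/ΔS day 2.5 the difference was -0.57 ± 0.11 and passed (edgeR adjusted p = 0.0199).

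Over the 17 sterol synthesis members the median log2 difference of Th1 from Th17 was 0.23, against 0.03 over all genes, with 14 above 0 and 3 below. Of all members that missed the threshold, Fads1 (0.56 ± 0.15, edgeR adjusted p = 0.065), Mvk (0.39 ± 0.11, 0.0711), Fads2 (0.66 ± 0.18, 0.0761) and Sc5d (0.35 ± 0.10, 0.0798) were the nearest to it. None of the 43 other pathway genes passed in edgeR, with 7 at an unadjusted p under 0.05, as were 24.4% of all genes, and a smallest adjusted p of 0.0676. DESeq2 called 10 members in this comparison. The share of all genes it called is not given here, so this count is not a result about the members.

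Single libraries decided much of the count against Th17. Leaving out Th1 WT day 3.5 or Th17 WT day 2.5 left 0 calls (edgeR, with 15 and 12 members at an unadjusted p under 0.05), and leaving out Th1 NFATc1/ΔS day 3.5, Th2 WT day 2.5, Th2 NFATc1/ΔS day 2.5, Th17 WT day 3.5 or Th17 NFATc1/ΔS day 3.5 left Abca1 alone. Without Th2 WT day 3.5 or Th17 NFATc1/ΔS day 2.5 the calls were Abca1 and Elovl6, and without Th2 NFATc1/ΔS day 3.5 they were Abca1 and Hmgcs1. Without the Th1 WT day 2.5 library the calls were Abca1, Sc5d and Fads1. Without the Th1 NFATc1/ΔS day 2.5 library 6 members were called, and without both of these libraries 13 were, 8 higher and 5 lower. Shares of all genes called in these fits are not given here, so the changes in count are not a result about the members.

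Th2 cells were lower than Th17 cells in 3 of the 17 sterol synthesis members and in Scd1. In the fit of all 12 libraries 0 members were higher and 4 lower, where 6.36% of all genes were higher and 5.67% lower. Sc5d, at 30.04, 29.22, 32.49 and 30.52 CPM in Th2 libraries, against 44.67, 49.79, 57.72 and 58.04 CPM in Th17 libraries, was lower by -0.78 ± 0.10 (edgeR adjusted p = 0.00172). Hmgcs1 was lower by -0.63 ± 0.10 (edgeR adjusted p = 0.00406), its 4 Th2 values lying below its 4 Th17 values. Mvd, with 78.78, 76.34, 85.4 and 79.49 CPM in Th2 libraries, against 99.71, 106, 113.8 and 121.1 CPM in Th17 libraries, was lower by -0.46 ± 0.10 (edgeR adjusted p = 0.0205). Scd1 had 114.1, 131.8, 200 and 175.8 CPM in Th17 libraries, which overlapped its Th2 values, and was lower by -0.79 ± 0.18 (edgeR adjusted p = 0.0238).

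The spread in that fit includes the 2 Th1 libraries that stood apart, so the comparison was also fitted to the 8 Th2 and Th17 libraries, a choice made after the data were seen. There 2 members were higher and 15 lower in Th2, and over all 12415 genes 20.2% were higher and 21.2% lower. The lower members were 11 of the 17 sterol synthesis enzymes, with Sc5d at -0.78 ± 0.07 (edgeR adjusted p = 2.02e-05), Hmgcs1 at -0.63 ± 0.08 (edgeR adjusted p = 0.000183) and Mvd at -0.46 ± 0.06 (edgeR adjusted p = 0.000267), together with Acly, Acaca, Fads1 and Fads2. The higher members were Ebp, at 0.23 ± 0.07 (edgeR adjusted p = 0.0178), and Abcg1, at 0.22 ± 0.07 (edgeR adjusted p = 0.0329). Scd1 was lost in this fit (-0.78 ± 0.24, edgeR adjusted p = 0.0658). The median over the sterol synthesis members was -0.24, against -0.03 over all genes.

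In the fit of all 12, leaving out Th2 WT day 2.5, Th2 WT day 3.5, Th2 NFATc1/ΔS day 2.5, Th17 WT day 2.5, Th17 WT day 3.5 or Th17 NFATc1/ΔS day 2.5 left 2 calls, Sc5d and Hmgcs1. Mvd was also lost without Th2 NFATc1/ΔS day 3.5. Without the Th1 NFATc1/ΔS day 2.5 library 9 members were called. The share of all genes called in that fit is not given here, so this larger count is not a result about the members. With all 12 libraries 3 of 7 B cell markers, 1 of 3 dendritic cell markers and 0 of 12 proliferation markers were higher in Th2 than in Th17 (edgeR). In the fit of 8 libraries 6 of 7 B cell and 3 of 3 dendritic cell markers were higher, and of the 12 proliferation markers 1 was higher and 1 lower. The part of these cells was not tested. Abca1, Srebf1, Srebf2, Insig1 and Stard4 did not pass between Th2 and Th17 in either fit. With all 12 libraries fitted, 6.36% of all genes were higher and 5.67% lower in Th2 than in Th17. Of the 43 other pathway genes, 4 were higher and 4 lower. The 6 further genes of sterol and isoprenoid synthesis among them had 0 calls, with 5 above 0, 1 below and a median of 0.08. In the fit of 8 libraries 1 of these 6 was higher and 0 lower. The values that follow are from the fit of all 12. Acsl4 was lower by -0.95 ± 0.13 (edgeR adjusted p = 0.00267) and Lipa, the lysosomal lipase that frees cholesterol from its esters, by -0.80 ± 0.17 (edgeR adjusted p = 0.0173). Cpt2, of mitochondrial fatty acid oxidation, was higher by 0.67 ± 0.14 (edgeR adjusted p = 0.0135), and Lpcat3 by 0.59 ± 0.12 (edgeR adjusted p = 0.0141).

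Between NFATc1/ΔS and WT, over all 6 pairs, no member was called by edgeR (smallest adjusted p 0.823) and none by DESeq2; 0% of 12329 genes were higher and 0% lower by edgeR, while 7 members and 5.81% of all genes had an unadjusted p under 0.05. All 7, Dhcr7, Nsdhl, Hsd17b7, Msmo1, Scd1, Mvd and Fdft1, were lower in NFATc1/ΔS. Of the 32 members, 26 had a log2 fold change below 0, with a median of -0.11, against 0.003 over all genes. Without the Th1 day 2.5 pair 29 were below 0 with the same median, and 7 members changed sign, among them Idi1, Acaca and Fasn, from positive to -0.11, -0.11 and -0.09, and Abcg1, to 0.25; none passed the test. Mvd, Fdft1, Lss, Msmo1, Nsdhl, Hsd17b7 and Dhcr7 were lower in NFATc1/ΔS in each of the 6 pairs, and no member was higher in each. For Hsd17b7 the difference in the Th1 day 2.5 pair was only -0.002 in log2(CPM + 2). Directions over the 6 pairs were not counted for all genes, so these members cannot be set against genes at large.

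Within single pairs of day 3.5, 27 of the 32 members in Th1, 28 in Th2 and 27 in Th17 were lower in NFATc1/ΔS than in WT, with medians of -0.11, -0.08 and -0.25 on the log2(CPM + 2) scale. Over all genes past the filter 50.3, 52 and 50.9% were lower in the same pairs. On day 2.5 the members that were lower numbered 20 in Th1, 16 in Th2 and 22 in Th17, with medians of -0.09, 0.00 and -0.05, where 49.8, 51.1 and 50.7% of all genes were lower. Each such count comes from a single pair of libraries, has no replicate check, and the difference between the days was not tested.

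**Figure D4:**
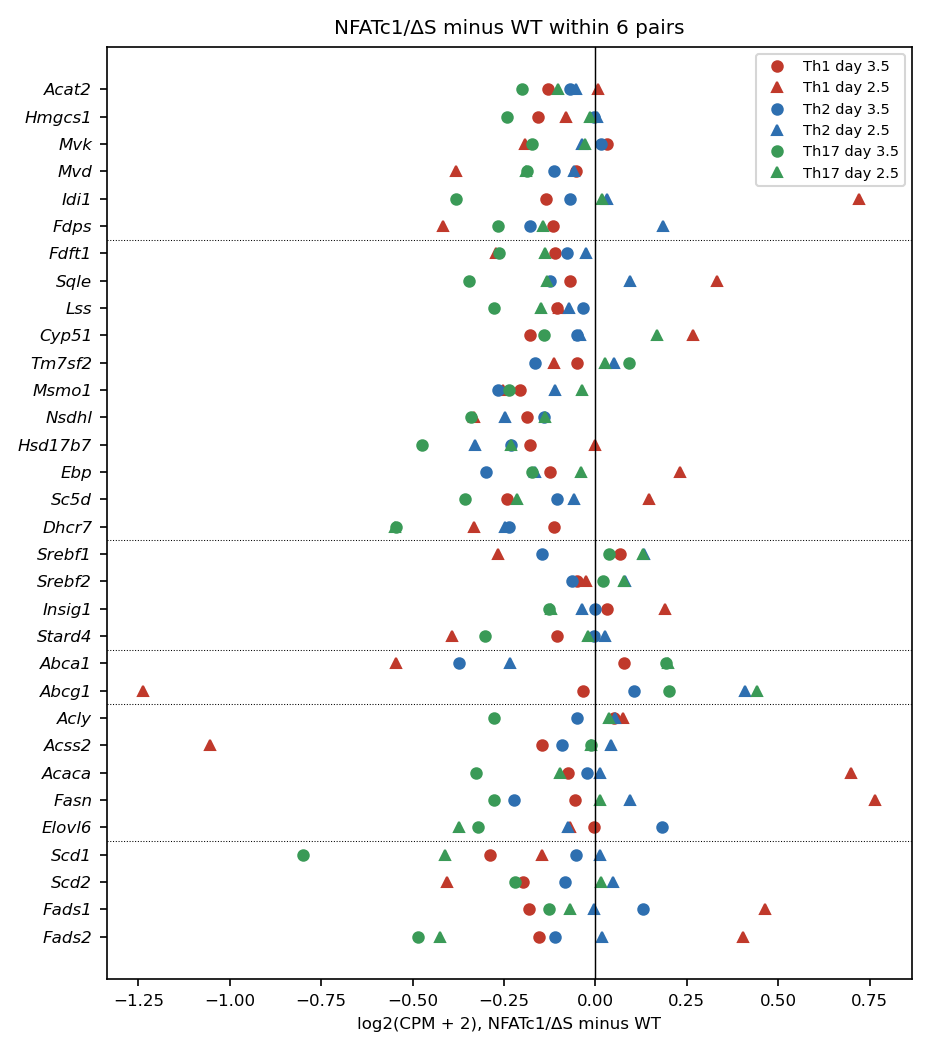
Difference of NFATc1/ΔS minus WT in log2(CPM + 2) for each member (rows) within each of the 6 pairs, coloured by cell type, with circles for day 3.5 and triangles for day 2.5. Dhcr7 lies left of 0 in all pairs, from -0.549 to -0.114, and the red triangles of the Th1 day 2.5 pair stand apart at Idi1, Acaca, Fasn, Abcg1 and Acss2.

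When only the 4 pairs of Th2 and Th17 were fitted, 2 members were lower and none higher, where 0.749% of 12415 genes were higher and 1.38% lower. Dhcr7, the reductase that completes cholesterol (ENSMUSG00000058454, chromosome 7, 143823145 to 143848410), had 76.9 and 66.87 CPM in Th2 NFATc1/ΔS libraries of day 3.5 and day 2.5, against 91.02 and 79.72 CPM in Th2 WT. It had 74.43 and 78.01 CPM in Th17 NFATc1/ΔS, against 109.5 and 115 CPM in Th17 WT. Every NFATc1/ΔS value was below its WT partner, and the log2 fold change was -0.41 ± 0.07 (edgeR adjusted p = 0.00551). In Th1 it had 99.14 and 97.24 CPM in NFATc1/ΔS, against 107.5 and 122.9 CPM in WT, so all 6 pairs had the same direction.

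Hsd17b7, a reductase of the sterol ring (ENSMUSG00000026675, chromosome 1, 169949535 to 169969241), had 44.99 and 36.62 CPM in Th2 NFATc1/ΔS libraries of day 3.5 and day 2.5, against 53.19 and 46.54 CPM in Th2 WT. It had 38.79 and 33.37 CPM in Th17 NFATc1/ΔS, against 54.71 and 39.47 CPM in Th17 WT. It was lower by -0.33 ± 0.07 (edgeR adjusted p = 0.0163). The call on Hsd17b7 was lost without the Th2 day 2.5 pair and without the Th17 day 3.5 pair (adjusted p = 0.0947 and 0.116), and by DESeq2, whereas Dhcr7 kept its call without each pair and by DESeq2. Without the blocks for cell type and day neither was called.

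Of the 17 sterol synthesis members, 16 lay below 0 over the 4 pairs, with a median of -0.13, and all 9 fatty acid members did, with a median of -0.10; the median of all genes was -0.004. Abcg1 had the opposite sign, at 29.83 and 41.72 CPM in Th2 NFATc1/ΔS, against 27.58 and 30.9 CPM in Th2 WT, and 24.86 and 38.52 CPM in Th17 NFATc1/ΔS, against 21.36 and 27.82 CPM in Th17 WT. It was higher in each of these 4 pairs but missed the threshold (0.31 ± 0.08, edgeR adjusted p = 0.055), which it passed without the Th2 day 3.5 pair. Srebf1, Srebf2, Insig1 and Abca1 differed by -0.07 to 0.04 and did not pass. None of the 43 other pathway genes passed in edgeR over these 4 pairs, with 8 at an unadjusted p under 0.05, as were 14.1% of all genes, and a smallest adjusted p of 0.119. The 12 proliferation markers were all above 0 over the same pairs, with none past the test and a median of 0.13, and 1 of 7 tested B cell markers was lower. CD8 T and NK cell markers summed to 73.4 and 94.1 CPM in Th2 NFATc1/ΔS libraries of day 3.5 and day 2.5, against 206 and 210 CPM in Th2 WT. In Th17 they summed to 30.1 and 43.4 CPM in NFATc1/ΔS, against 37.6 and 55.5 CPM in WT. The Th2 difference lay in Gzma, at 49.79 and 63.84 CPM in NFATc1/ΔS, against 182.5 and 178.1 CPM in WT. Cd8b1 had 18.01 and 21.67 CPM, against 18.18 and 22.51 CPM, in the same Th2 libraries. Cd8a had 5.354 and 8.211 CPM there, against 5.263 and 8.163 CPM. Of the lineage markers, 3 of 4 for Th17 were lower in NFATc1/ΔS over the 4 pairs, with a median of -0.81, as were 2 of 4 for Th2, with a median of -0.51, and 1 of 4 for Th1. The part of these cells in the genotype results was not tested.

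Whether the genotype acted differently in Th2 and Th17 was tested as the difference of the 2 effects. No member passed by edgeR and none by DESeq2, where 0.0725% of all genes were higher and 0.226% lower, and 5 members and 6.07% of all genes had an unadjusted p under 0.05. The smallest p was that of Scd1, at 0.59 ± 0.14 (edgeR adjusted p = 0.131). Scd1 had 111.5 and 68.87 CPM in Th2 NFATc1/ΔS libraries of day 3.5 and day 2.5, against 115.9 and 68.28 CPM in Th2 WT, and 114.1 and 131.8 CPM in Th17 NFATc1/ΔS, against 200 and 175.8 CPM in Th17 WT. Without the Th17 day 2.5 pair this difference was called.

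Between the days, no member was called over all 6 pairs by edgeR or by DESeq2, with 0% of 12329 genes higher and 0% lower by edgeR. Fads2 and Scd1, 2 of 32 members, had an unadjusted p under 0.05, as did 10.8% of all genes. Without the Th1 NFATc1/ΔS pair, which holds the Th1 NFATc1/ΔS day 2.5 library, Fads2 was called, as were 209 of all genes.

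In the 4 Th2 and Th17 pairs 5 members were higher and 3 lower on day 3.5, where 20.8% of all genes were higher and 19.7% lower. As a group the members were thus called no more often than genes at large. Fads2 (ENSMUSG00000024665, chromosome 19, 10064164 to 10101503) had 41.37 CPM on day 3.5, against 29.59 CPM on day 2.5, in Th2 NFATc1/ΔS, and 44.84 against 29.22 CPM in Th2 WT. In Th17 it had 47.77 against 31.05 CPM in NFATc1/ΔS and 67.59 against 42.37 CPM in WT. Day 3.5 was above day 2.5 in each pair, and the log2 fold change was 0.60 ± 0.07 (edgeR adjusted p = 0.000127). Idi1 was higher by 0.47 ± 0.09 (edgeR adjusted p = 0.0018), Acaca by 0.36 ± 0.07 (edgeR adjusted p = 0.00204), Acat2 by 0.37 ± 0.07 (edgeR adjusted p = 0.0024) and Hsd17b7 by 0.30 ± 0.07 (edgeR adjusted p = 0.00845). Without the blocks for cell type and genotype 2 of the 8 calls were left, Acat2 and Scd2.

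The members lower on day 3.5 were Scd2, Abcg1 and Stard4. Scd2 had 1809 CPM on day 3.5, against 2268 CPM on day 2.5, in Th2 NFATc1/ΔS, 1917 against 2195 CPM in Th2 WT, 1521 against 2323 CPM in Th17 NFATc1/ΔS and 1773 against 2297 CPM in Th17 WT. It was lower in each pair, by -0.37 ± 0.08 (edgeR adjusted p = 0.00331). Abcg1 was lower by -0.42 ± 0.09 (edgeR adjusted p = 0.00372) and Stard4 by -0.31 ± 0.08 (edgeR adjusted p = 0.00737). In Th1, by contrast with these 4 pairs, Scd2 had 1999 CPM on day 3.5, against 1350 CPM on day 2.5, in NFATc1/ΔS, and 2291 against 1790 CPM in WT. Both Th1 values of day 2.5 come from the libraries that stood apart from the rest. Whether the day acted differently in Th1 was not tested. The 12 proliferation markers were all above 0 on day 3.5 in the Th2 and Th17 pairs, 11 of them past the test, with a median of 0.54. Both tested erythroid markers were lower on day 3.5, with a median of -3.06, as were 2 of 3 CD8 T and NK cell, 2 of 7 CD4 T cell, 1 of 7 B cell and 1 of 4 Th17 markers. Higher on day 3.5 were 3 of 4 Th2 markers, with a median of 1.27, and 1 of 3 dendritic cell markers, and of the 4 Th1 markers 1 was higher and 1 lower. The part of these cells in the day results was not tested.

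Of the 43 other pathway genes 9 were higher and 11 lower on day 3.5, where 20.8% of all genes were higher and 19.7% lower. Among these 43, the 7 genes of cholesterol storage and uptake had 1 higher and 5 lower. Vldlr, a receptor for lipoproteins, was lower by -0.89 ± 0.08 (edgeR adjusted p = 3.32e-05), Soat1, which esterifies cholesterol, by -0.72 ± 0.07 (edgeR adjusted p = 3.94e-05) and Npc2, which carries cholesterol out of lysosomes, by -0.57 ± 0.07 (edgeR adjusted p = 0.000118). Acsl5, which activates long fatty acids, was higher by 0.57 ± 0.07 (edgeR adjusted p = 0.000176).

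**Figure D5:**
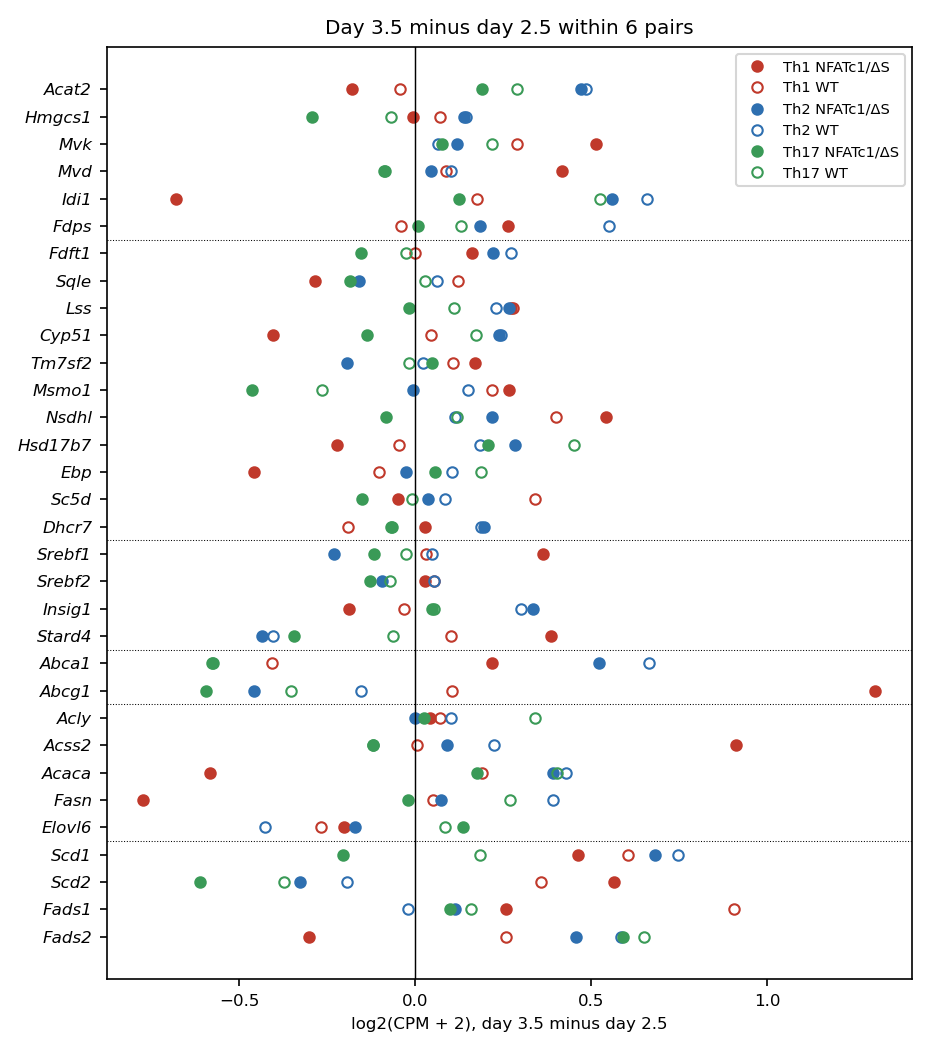
Difference of day 3.5 minus day 2.5 in log2(CPM + 2) for each member (rows) within each of the 6 pairs, coloured by cell type, filled for NFATc1/ΔS and open for WT. Abca1 lies right of 0 in the Th2 pairs, at 0.523 and 0.663, and left of it in the Th17 pairs, at -0.577 and -0.573, and the filled red points of the Th1 NFATc1/ΔS pair stand apart at Abcg1, Acss2, Fasn, Idi1 and Acaca.

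The day acted differently in Th2 and Th17 on Abca1 and Scd1, the 2 members past the test of that difference, where 0.95% of all genes were higher and 0.604% lower. Abca1 had 7.996 CPM on day 3.5, against 4.956 CPM on day 2.5, in Th2 NFATc1/ΔS, and 10.95 against 6.179 CPM in Th2 WT. In Th17 it had 4.694 against 7.987 CPM in NFATc1/ΔS and 3.853 against 6.708 CPM in WT. Day 3.5 was higher in both Th2 pairs and lower in both Th17 pairs, and the difference of the effects, Th2 minus Th17, was 1.54 ± 0.26 (edgeR adjusted p = 0.00658). Abca1 had 55 to 156 reads in each of these 8 libraries, the fewest of any member. For Scd1 the difference was 0.74 ± 0.14 (edgeR adjusted p = 0.0168), with the values given above; it was lost without the Th17 NFATc1/ΔS pair (adjusted p = 0.0588), and Abca1 by DESeq2, and neither was called without the blocks. None of the 43 other pathway genes passed in edgeR, with 5 at an unadjusted p under 0.05, as were 13.2% of all genes, and a smallest adjusted p of 0.0635.

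Summed levels of markers of other cell types are given beside the Abca1 difference. Dendritic cell markers summed to 8.55 CPM on day 3.5, against 5.25 CPM on day 2.5, in Th2 NFATc1/ΔS, and to 8.77 against 5.49 CPM in Th2 WT. In Th17 they summed to 1.81 against 2.09 CPM in NFATc1/ΔS and to 2.03 against 3.18 CPM in WT. Myeloid markers summed to 12.8 against 11.5 CPM and 14.4 against 11.9 CPM in Th2, and to 10.6 against 17.7 CPM and 9.04 against 11.9 CPM in Th17, for NFATc1/ΔS and WT in turn. B cell markers summed to 37 against 36 CPM and 50.1 against 44.2 CPM in Th2, and to 14.5 against 20.8 CPM and 22.5 against 31.6 CPM in Th17. By the test of the same difference 0 of 3 dendritic cell, 0 of 2 myeloid and 0 of 7 B cell markers passed in edgeR, with 0, 1 and 6 at an unadjusted p under 0.05, and 2 of 12 proliferation markers were lower. The 2 myeloid markers had opposite signs, Cd68 at 0.81 ± 0.23 and Itgam at -0.68 ± 0.68 on the log2 scale. The part of these cells in the Abca1 difference was not tested.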

How the data were processed

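Poly(A) RNA libraries were made with a NEBNext Ultra II kit, per the labels. The deposited tables give, for each gene, counts of total gene reads, unique gene reads, exon reads and intron reads, with the exon length in bases, per the file headers. The genome was GRCm38, per the submitters' processing notes; the names of the aligner and counter were not given in sources used here. Total gene counts, as deposited by the authors, include reads that also map elsewhere. The deposited TPM column was recomputed from exon counts and exon length, which weights genes per length.

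Total gene counts were analysed with edgeR 4.0.16 in R 4.3.3: genes kept with filterByExpr (min.count 10), TMM scaling, and a robust quasi-likelihood test with Benjamini-Hochberg adjustment over all genes tested, at 0.05. CPM are counts per 1000000 TMM-scaled reads, and log2(CPM + 2) was used for pairs and heatmaps. Cell types were compared over 12 libraries with genotype by day as blocks, and genotypes or days within pairs of the other factors. Pairs were formed by the factors of the design and not by replicate numbers. Alternatives were DESeq2 1.42.0, its size factors in edgeR, no filter, unique or exon reads, no blocks, and leaving out each library or pair. The code was tested on simulated data.

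The members and gene lists were chosen with earlier results of these data known. Members past the threshold were named with their values, and at most 4 other pathway genes per comparison by smallest p; the choice of Scd2 in Th1 was made after its values were seen. Marker lists covered CD4 T cells, Th1, Th2 and Th17 cells, B cells, myeloid and dendritic cells, CD8 T and NK cells, erythroid cells and proliferation. Depth was 13417121 to 17774400 gene reads a library. Some genes of these pathways are not reported here.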

Additional observations from a re-analysis of the deposited data

Results flagged for a closer look

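Within the 4 libraries of a cell type, 96 groups of values (32 members in 3 cell types) were searched for a library far from the other 3, and 6 were found; chance gives about 1 in 20. In the Th1 NFATc1/ΔS day 2.5 library there were 3: Insig1 at 182.4 CPM, against 156 to 160 CPM in the other Th1 libraries, Abcg1 at 5.62 CPM, against 15.9 to 17.3 CPM, and Fasn at 738.2 CPM, against 432 to 449 CPM. In the Th17 WT day 3.5 library Acly had 903.9 CPM, against 713 to 746 CPM, and Fasn 589.2 CPM, against 486 to 493 CPM. In the Th2 NFATc1/ΔS day 3.5 library Fads1 had 40.33 CPM, against 36.7 to 37.2 CPM.

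The effect of day differed between Th2 and Th17 for Abca1, by 1.54 on the log2 scale (edgeR adjusted p = 0.00658), with day 3.5 higher in 2 of 2 Th2 pairs and lower in 2 of 2 Th17 pairs. For Scd1 it differed by 0.74 (edgeR adjusted p = 0.0168), with day 3.5 higher in 2 of 2 Th2 pairs and in 1 of 2 Th17 pairs. The causes were not tested.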

How the results depend on the processing

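No called member changed sign under any alternative. Among members that did not pass, values near 0 did: leaving out the Th1 NFATc1/ΔS day 2.5 library, or the pair that holds it, turned 3 in Th1 against Th2, 5 in Th1 against Th17, 7 in the 6 genotype pairs and 5 in the 6 day pairs, all between -0.14 and 0.13 on the log2 scale with all libraries. Counts of called members were 18 for Th1 against Th2, 3 for Th1 against Th17 and 4 for Th2 against Th17. Leaving out single libraries gave 11 to 20, 0 to 6 and 2 to 9 calls. With 2 cell types alone in the fit there were 10, 0 and 17, and without both Th1 day 2.5 libraries 22, 13 and 19. NFATc1/ΔS libraries alone gave 0 in each comparison and WT libraries alone 4, 0 and 0, with 2 libraries a group. For Th1 against Th17, DESeq2 called 10 and no filter 1. Without both Th1 day 2.5 libraries, with 2 cell types alone and with 1 genotype, the choice was made after seeing the data. Counts under these alternatives are given without the shares of all genes, so a change in them is not a result about the members.

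Over the 4 Th2 and Th17 pairs, the genotype count of 2 became 1 with DESeq2, 6 with no filter and 0 with no replicate block, and 1 to 3 without single pairs. Over 6 pairs it was 0 throughout. The genotype difference between Th2 and Th17 had 1 call with no filter, and 0 to 1 without single pairs. The day count of 8 became 2 with no replicate block and 8 to 10 without single pairs; over 6 pairs it was 0 to 1. The difference in day effect, 2 calls, became 1 with DESeq2, 4 with no filter, 0 with no replicate block, and 1 to 2 without single pairs. The causes were not tested. All other alternatives, including the other scaling and unique or exon reads, gave counts within 1.5 times the reported ones. The blocks are the other factors of the design, since replicate numbers do not pair these libraries, and removing them changed none of the cell type counts by more than 1.5 times (18, 3 and 3 calls). Depth limits Abca1 most, at 9 to 156 reads a library.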
